A study of Homo sapiens with 18 samples.

Results

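The nuclear genes that encode the subunits of the mitochondrial respiratory chain and ATP synthase were followed under inhibition of BCL6 in 3 lymphoma lines. The members were selected on gene names: NDUFA, NDUFB, NDUFC, NDUFS and NDUFV followed by a number, SDHA to SDHD, and names that begin with UQCR, COX4 to COX8 or ATP5. The name rule matched 78 rows of the deposited table and left 76 genes of 26004 loci with a gene name. The rule was chosen with earlier results of these data known. In applying it, measured values entered only for 2 names with 2 rows each. Of these the row with the higher mean FPKM over the 18 libraries was kept (NDUFA4L2 with 5.42 against 1.11 FPKM and NDUFB6 with 54.4 against 0.416 FPKM). Of the 76 members 70 encode subunits: 30 of complex I, 4 of complex II, 7 of complex III, 18 of complex IV and 11 of complex V. The other 6 encode no subunit (ATP5S, ATP5SL, ATP5EP2, UQCRBP1, NDUFA6-AS1 and NDUFB2-AS1). A further 14 subunit genes, among them ATP5B, NDUFS1 and NDUFS8, lie in loci whose name merges several genes and were not analysed here.

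Respiration passes electrons from NADH through complex I and from succinate through complex II to ubiquinone, on through complex III and cytochrome c, and to oxygen at complex IV. Complexes I, III and IV pump protons across the inner mitochondrial membrane, and ATP synthase, complex V, makes ATP as the protons flow back. Complex II is encoded by nuclear genes alone and also works in the tricarboxylic acid cycle, whereas each of the other complexes combines nuclear subunits with a few made from mitochondrial DNA. In germinal centre B cells and the lymphomas that arise from them, BCL6 is a transcriptional repressor that keeps the germinal centre program in place.

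SUDHL6, SUDHL4 and Farage are established human cell lines from diffuse large B cell lymphomas that resemble germinal centre B cells. Each line was given a BCL6 inhibitor or the solvent DMSO, with 3 messenger RNA libraries in each of the 6 groups and 18 in all. The culture medium of every group was RPMI1640 supplemented with fetal bovine serum. The titles put the treatment at 12 h and the source names put it at 24 h, and neither the compound nor its dose is given in the sources used here. Each line derives from a single tumour, and nothing says that replicates were separate cultures, so p-values measure the spread between these libraries, which may be technical.

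Expression was given as FPKM, which sets fragments against transcript length and library size. FPKM carry no read counts, so no counting interval is given. The depth relative to the median spanned 0.691 to 1.15 in the 16 libraries that showed whole-read steps. In all 3 lines every inhibitor library that had a value was shallower than each DMSO library of its line. The gap was smallest in Farage, with inhibitor replicate 1 at 1.001 and DMSO replicate 3 at 1.008. The SUDHL6 replicate 3 libraries stood apart in both arms: they lacked those steps and held 2425 and 2776 FPKM at the unnamed locus of the mitochondrial chromosome, where the other SUDHL6 libraries were listed at 0. The lines' B cell identity showed in a summed level of the 7 of 12 marker genes with a row of their own of 725 to 1323 FPKM in DMSO libraries and 358 to 900 FPKM in inhibitor libraries. Of T and NK cells 7 of 8 markers had a row and summed to at most 1.49 FPKM, and 7 of 7 monocyte markers summed to at most 3.75 FPKM, with FCGR3A and S100A9 at 0 in every library. Fibroblast and epithelial markers, 10 of 11 with a row and led by THY1 and DCN, summed to 52.2 to 56.1 FPKM in SUDHL4 DMSO libraries, 16.3 to 17.7 FPKM in SUDHL4 inhibitor libraries and at most 2.78 FPKM elsewhere. The part of depth and of these markers in the results was not tested.

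The inhibitor was followed by lower levels of most complex I and complex V subunit genes in all 3 lines, while complex II had 1 call among its 4 genes in each line and complexes III and IV were mixed. Of 12201 genes, those with at least 1 FPKM in at least 3 libraries, 64 were subunit genes and 5 were other members. Each was tested with limma on log2(FPKM + 1), and a call is a Benjamini-Hochberg adjusted p under 0.05 over all genes tested. In SUDHL6 39 of the 64 subunit genes were called lower and 6 higher, where 33.7% of all genes tested were called lower and 30.2% higher. The SUDHL4 count was 40 lower and 7 higher, beside 37.1% and 29.6% of all genes tested. Farage had 48 lower and 2 higher, beside 38% and 29.2% of all genes tested. On average over the lines 48 were lower and 5 higher, beside 44.9% and 35.7%. Over all 69 members tested the counts were 41 lower and 7 higher in SUDHL6, 42 and 9 in SUDHL4, 49 and 3 in Farage, and 50 and 7 on average. The median log2 fold change of the 64 was -0.36 in SUDHL6, -0.34 in SUDHL4 and -0.49 in Farage, beside -0.01, -0.04 and -0.07 over all genes tested. In bulk RNA, fewer cells of a type and less RNA per cell cannot be told apart.

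Complex V had the lowest medians: the median log2 fold change of its 10 tested genes was -0.83 in SUDHL6, -0.77 in SUDHL4 and -1.06 in Farage. The 30 complex I genes followed with medians of -0.41, -0.67 and -0.53. The 13 complex IV genes had medians of -0.06, -0.13 and -0.29, and the 7 complex III genes -0.19, 0.01 and -0.24. For the 4 complex II genes the medians were 0.17, 0.11 and -0.06. The signs of 4 of these medians depended on the processing: complex III in SUDHL4 was -0.07 with quantile normalization and -0.13 with a 5 FPKM filter, complex II in Farage was 0.02 with median-ratio scaling, and complex IV was 0.18 in SUDHL6 and 0.04 in SUDHL4 once the trend over GC content and transcript length was removed. Complexes I and V stayed below 0 in every line under each of the 30 alternatives. The small medians also moved by over 1.5 times without 1 library. Complex IV in SUDHL6 was -0.11 without SUDHL6 DMSO replicate 2, -0.036 without SUDHL6 inhibitor replicate 2 and -0.0050 without SUDHL6 DMSO replicate 3. Complex II ran from 0.11 (without SUDHL6 DMSO replicate 2) to 0.29 (without SUDHL6 DMSO replicate 3) in SUDHL6, from 0.060 to 0.18 in SUDHL4 (without its inhibitor replicate 2 and 3) and from -0.092 to -0.016 in Farage (without its DMSO replicate 1 and 2, and -0.037 without its inhibitor replicate 1). Complex III in SUDHL4 ran from -0.018 (without its inhibitor replicate 2) to 0.054 (without its inhibitor replicate 3) and moved without each other SUDHL4 library as well.

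**Figure D1:**
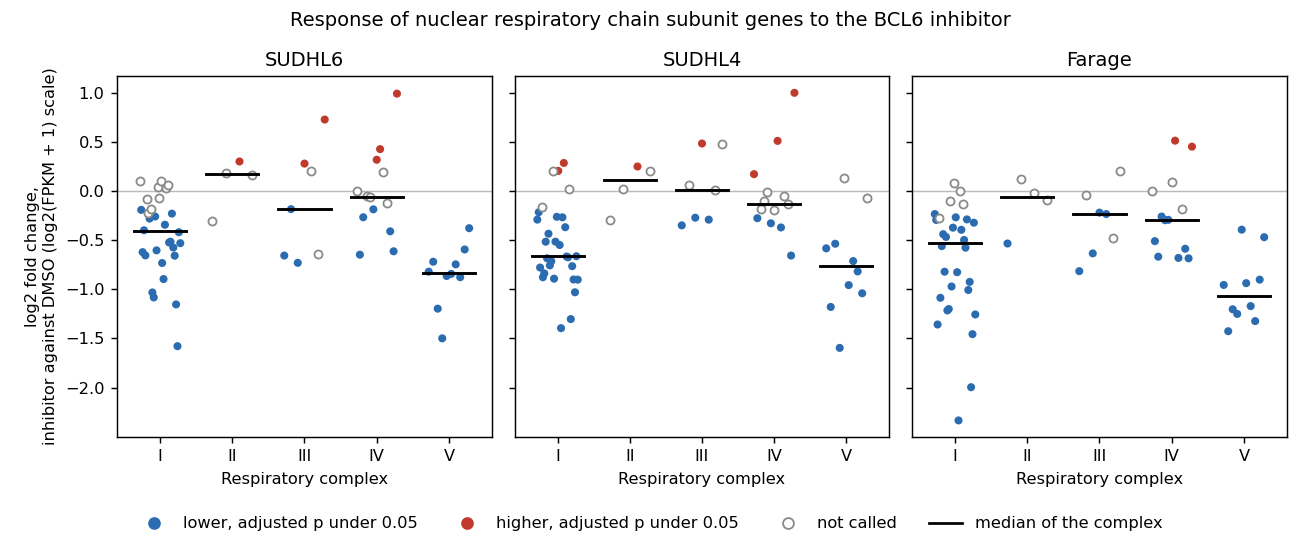
Fitted log2 fold change (vertical axis, inhibitor against DMSO on the log2(FPKM + 1) scale) of the 64 tested subunit genes by respiratory complex (horizontal axis) in each line, with filled points for adjusted p under 0.05 and bars for the complex medians. All 10 complex V points lie below 0 in SUDHL6 and Farage, and the complex V medians are -0.83, -0.77 and -1.06.

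In all 3 lines 30 of the 64 subunit genes were called lower, beside 21.2% of all genes tested, and 2 were called higher in all 3, beside 18.3%. The 30 comprised 17 genes of complex I, 8 of complex V, 3 of complex IV and 2 of complex III. The 2 that rose in every line were COX7A2L and NDUFA4L2. Calls in opposite directions in 2 lines were made for 3 subunit genes (NDUFB5, NDUFB9 and UQCRC2), beside 6.05% of all genes tested. There was no call in any line for SDHB, SDHD, UQCRH or COX7C, 4 genes beside 11.5% of all genes tested.

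**Figure D2:**
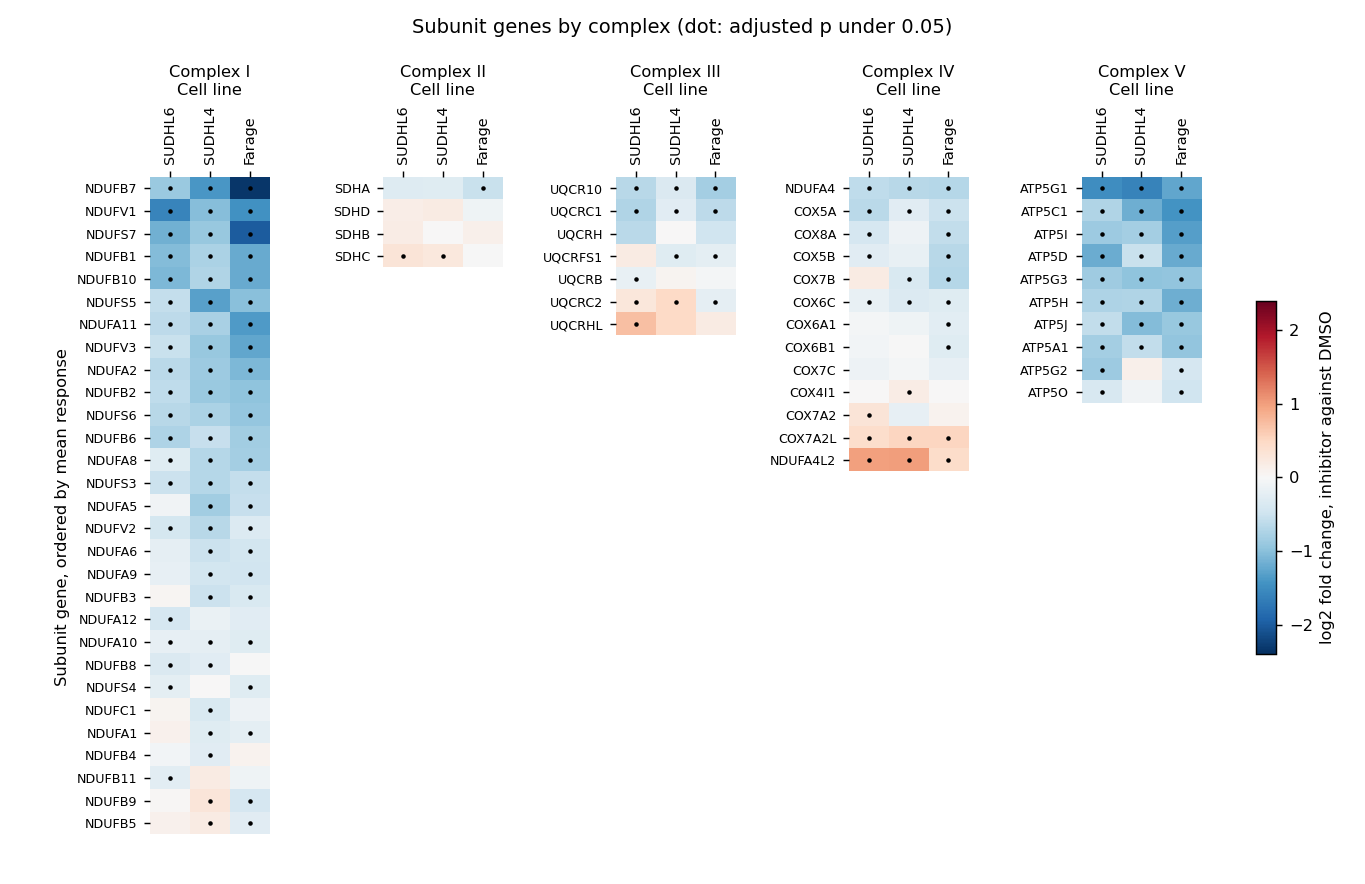
Log2 fold change (colour, inhibitor against DMSO) of the tested subunit genes (rows, ordered within each complex by the average over lines, with 1 complex I gene not shown) in the 3 lines (columns), with a dot where the adjusted p was under 0.05. NDUFB7, NDUFV1 and NDUFS7 head complex I, ATP5G1 and ATP5C1 head complex V, and COX7A2L and NDUFA4L2 are the only genes marked as higher in all 3 lines.

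Some promoter letters, which the name rule did not use, were more frequent among the subunit genes than among all promoters. RefSeq promoters (GRCh38.p14, 250 bases before to 50 after the start) were matched for 54 of the 64 tested subunit genes and searched on both strands for fixed letters. The letters GCGCANGCG of nuclear respiratory factor NRF1 occurred in 18 of 54 promoters (33.3%), against 8.05% of all 27305 promoters. CCGGAAG, the core read by ETS factors such as GABP, occurred in 14 (25.9%) against 10.7%, and 28 of the 54 (51.9%) held one or the other, against 17.1%. The YY1 letters AAGATGGCG occurred in 7 (13.0%) against 1.85%, and in no member promoter did they overlap the ETS letters. The cyclic AMP response element TGACGTCA occurred in 5 (9.26%) against 1.98%, the estrogen-related receptor letters TCAAGGTCA in 1 (1.85%) against 0.359%, CCAAT in 18 (33.3%) against 35.7%, and the MYC E-box CACGTG in 4 (7.41%) against 7.43%. Of the 25 matched genes called lower in all 3 lines 12 (48.0%) held the NRF1 or ETS letters, and of the other 29 matched genes 16 (55.2%) did. The single letter sets were found in 9 of those 25 and 9 of the 29 for NRF1, 5 and 9 for ETS, 3 and 4 for YY1, 4 and 1 for TGACGTCA, 0 and 1 for TCAAGGTCA, 7 and 11 for CCAAT and 4 and 0 for the E-box. These counts were not tested. All 27305 promoters include those of genes that did not pass the filter, and a comparison with tested genes alone was not made. A match describes letters in a window and says nothing of binding.

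The 250 bases before the start are shown for 4 of the genes that fell most and for 2 complex II genes with no call in any line, with capitals marking every match to the letters above that lies within them. NDUFB7 (chr19:14572067-14572316, minus strand) has the ETS letters 24 bases before the start. NDUFV1 (chr11:67606686-67606935, plus strand) has no match. ATP5G1 (chr17:48892537-48892786, plus strand) has TGACGTCA at 57 bases before the start and CCAAT at 181, 78, 48 and 22 bases. NDUFS7 (chr19:1383657-1383906, plus strand) has the E-box at 187 and the NRF1 letters at 74 bases. SDHB (chr1:17054033-17054282, minus strand) has the ETS letters at 128 bases. SDHD (chr11:112086623-112086872, plus strand) has the NRF1 letters on both strands, overlapping at 110 and 109 bases, and the ETS letters at 77 bases. Each is written 5′ to 3′ on the gene's strand, and a position is that of the match's first base. Matches counted above that reach past the start are not printed: the YY1 letters and TGACGTCA of SDHB, the YY1 letters of NDUFS7, the E-box of ATP5G1 and TCAAGGTCA of SDHD.
NDUFB7: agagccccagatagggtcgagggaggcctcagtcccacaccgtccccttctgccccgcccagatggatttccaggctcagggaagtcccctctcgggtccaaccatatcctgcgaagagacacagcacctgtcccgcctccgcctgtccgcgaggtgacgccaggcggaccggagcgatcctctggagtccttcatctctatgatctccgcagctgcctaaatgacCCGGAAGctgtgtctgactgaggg
NDUFV1: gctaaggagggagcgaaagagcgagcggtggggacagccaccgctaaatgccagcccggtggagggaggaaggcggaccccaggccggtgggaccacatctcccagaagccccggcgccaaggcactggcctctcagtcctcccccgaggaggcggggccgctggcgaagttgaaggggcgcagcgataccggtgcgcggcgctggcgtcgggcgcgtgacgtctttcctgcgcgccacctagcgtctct
ATP5G1: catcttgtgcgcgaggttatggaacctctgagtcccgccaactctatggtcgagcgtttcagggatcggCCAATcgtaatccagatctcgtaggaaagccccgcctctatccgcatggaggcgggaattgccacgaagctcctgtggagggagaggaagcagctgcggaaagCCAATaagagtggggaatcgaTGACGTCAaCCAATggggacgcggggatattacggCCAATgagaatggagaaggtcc
NDUFS7: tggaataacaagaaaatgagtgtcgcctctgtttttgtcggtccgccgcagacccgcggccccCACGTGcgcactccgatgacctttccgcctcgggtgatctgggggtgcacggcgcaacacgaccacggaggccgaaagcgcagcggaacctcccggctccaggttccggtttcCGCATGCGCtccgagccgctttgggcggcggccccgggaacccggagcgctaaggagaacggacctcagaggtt
SDHB: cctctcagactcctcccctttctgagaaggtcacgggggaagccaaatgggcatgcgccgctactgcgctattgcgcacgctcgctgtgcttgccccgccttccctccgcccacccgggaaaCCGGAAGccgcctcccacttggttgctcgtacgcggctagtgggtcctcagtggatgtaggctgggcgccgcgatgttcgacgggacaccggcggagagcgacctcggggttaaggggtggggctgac
SDHD: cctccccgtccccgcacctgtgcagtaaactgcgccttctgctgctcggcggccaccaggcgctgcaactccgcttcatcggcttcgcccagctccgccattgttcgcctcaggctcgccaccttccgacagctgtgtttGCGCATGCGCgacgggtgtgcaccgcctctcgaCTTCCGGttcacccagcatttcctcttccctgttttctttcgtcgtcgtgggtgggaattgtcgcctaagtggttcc

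Complex I takes electrons from NADH through a matrix arm that carries a flavin and a chain of iron-sulfur clusters. The core genes NDUFV1, NDUFV2, NDUFS3 and NDUFS7 of that arm were called lower in all 3 lines. NDUFV1, the flavoprotein that oxidizes NADH, fell most among them on average, with NDUFS7 close behind. Without 1 library the average ran from -1.39 to -1.33 for NDUFV1 and from -1.40 to -1.29 for NDUFS7. NDUFV1 (hg19 chr11:67373765-67380065) read 93.2, 93.1 and 107 FPKM in SUDHL6 DMSO libraries and 31.1, 34.6 and 30.6 FPKM with the inhibitor. SUDHL4 read 78.5, 80.9 and 65.6 FPKM without and 34.6, 40.5 and 33.4 FPKM with it. In Farage the values were 106, 106 and 99.2 FPKM and 37.7, 37.2 and 36.8 FPKM. Every inhibitor library lay below every DMSO library of its line. The log2 fold changes were -1.58 ± 0.09 (SE), -1.03 ± 0.09 and -1.46 ± 0.09, with limma adjusted p of 8.52e-09, 1.56e-07 and 5.73e-09. NDUFS7, which carries the last cluster before ubiquinone, fell by the same test with log2 fold changes of -1.15, -0.90 and -2.00 (SE 0.20; adjusted p = 0.000887 or lower in limma). NDUFS3, an early-assembled subunit of the arm, had log2 fold changes of -0.52, -0.68 and -0.58 (SE 0.08; limma adjusted p = 3.56e-05, 2.2e-06 and 1.11e-05). NDUFV2, an iron-sulfur partner of NDUFV1, had log2 fold changes of -0.42, -0.66 and -0.32 (SE 0.08; limma adjusted p = 0.00152 or lower).

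Most of the accessory subunit genes of complex I fell as well. Of all 30 complex I genes, core included, 21 were lower and 0 higher in SUDHL6, beside 33.7% and 30.2% of all genes tested. SUDHL4 had 25 lower and 2 higher, beside 37.1% and 29.6%, and Farage 25 and 0, beside 38% and 29.2%. The log2 fold changes of the 30 ran from -1.58 to 0.11 in SUDHL6, -1.40 to 0.28 in SUDHL4 and -2.33 to 0.08 in Farage. The lowest SUDHL6 value was that of the core gene NDUFV1. NDUFB7, an accessory subunit on the intermembrane side of the membrane arm (hg19 chr19:14676890-14682889), had the largest average decrease of the 64. Its SUDHL6 values were 96.5, 106 and 114 FPKM with DMSO and 60.7, 61.6 and 47.2 FPKM with the inhibitor. SUDHL4 had 77.1, 75.3 and 62.9 FPKM and 26.6, 30.2 and 23.3 FPKM. The Farage libraries went from 52.6, 62.8 and 58.3 FPKM to 11.3, 9.62 and 11.1 FPKM. The arms were separate in each line, and the fall was deepest in Farage: the log2 fold changes were -0.90 ± 0.12 (SE), -1.40 ± 0.12 and -2.33 ± 0.12, with limma adjusted p of 1.69e-05, 1.78e-07 and 1.42e-09. NDUFV3, a small accessory subunit near NDUFV1, had -0.53, -0.90 and -1.26 (SE 0.07), again lowest in Farage. NDUFA5, an accessory subunit of the matrix arm, was not called in SUDHL6 (-0.08 ± 0.07, adjusted p = 0.381, but -0.26 and called lower with the GC and length trend removed, 0.00323) and fell in SUDHL4 (-0.84 ± 0.07, adjusted p = 2.02e-07) and Farage (-0.56 ± 0.07, adjusted p = 1.13e-05, all by limma).

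A pair of membrane-arm accessory genes took opposite calls. NDUFB9 read 152, 150.0 and 153 FPKM in SUDHL4 DMSO libraries and 184, 196 and 175 FPKM with the inhibitor, so that the arms did not overlap and the gene rose (0.28 ± 0.06, limma adjusted p = 0.00112). In Farage it went from 149, 162 and 151 FPKM to 115, 116 and 119 FPKM and fell (-0.40 ± 0.06, limma adjusted p = 6.57e-05). NDUFB5 had the same pair of calls, higher in SUDHL4 (0.20 ± 0.07, adjusted p = 0.0145) and lower in Farage (-0.27 ± 0.07, adjusted p = 0.00245, limma). The SUDHL4 call of NDUFB5 was lost without SUDHL4 DMSO replicate 2 or SUDHL4 inhibitor replicate 2 (adjusted p = 0.0503 to 0.0531), with quantile normalization (0.0893) and with the trend over GC content and length removed (0.0852). With quantile normalization the SUDHL4 call of NDUFB9 was lost too (adjusted p = 0.0653), and with the GC and length trend removed NDUFB9 was called higher in SUDHL6 (0.16, adjusted p = 0.0286). The deposited loci of NDUFB5, NDUFB9 and NDUFS7 have the same start and end as rows of neighbouring genes, as do 30 of the 76 members, so reads at their borders may not be cleanly split.

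**Figure D3:**
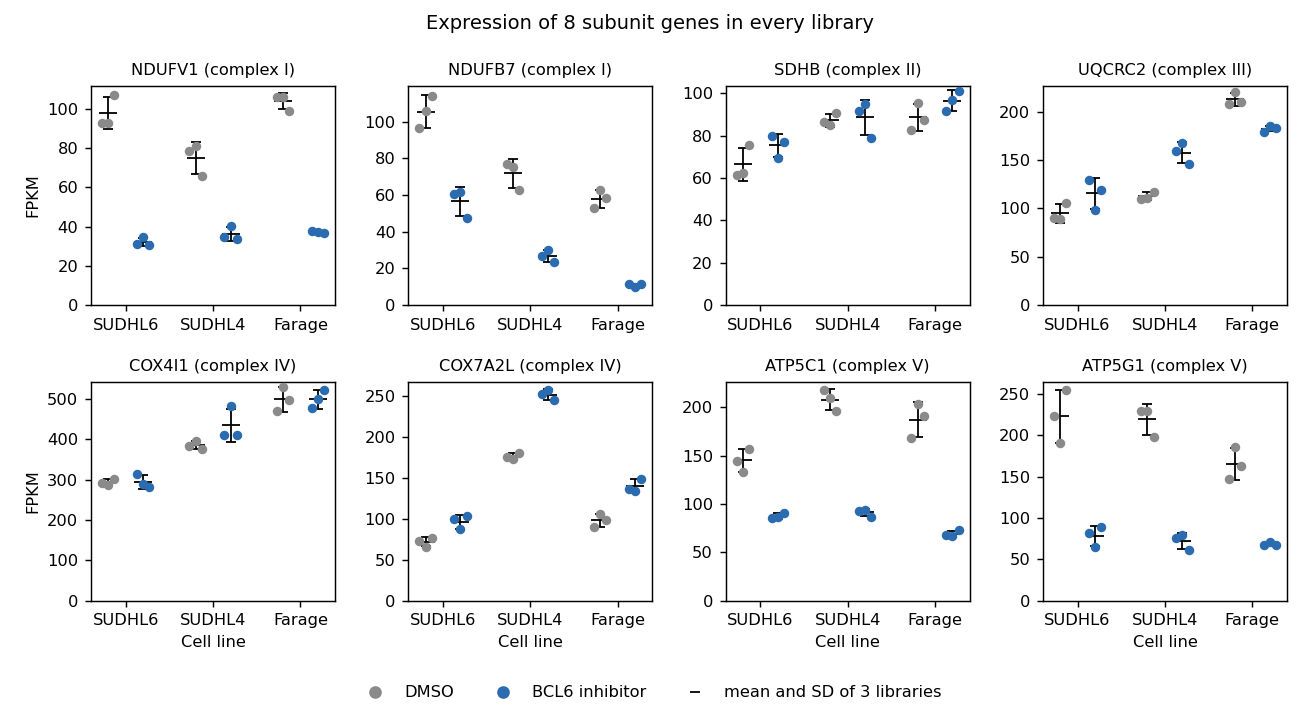
FPKM (vertical axis, from 0) of 8 subunit genes in every library, by line (horizontal axis), with DMSO in grey, inhibitor in blue, and the mean and SD of 3 libraries in black. NDUFV1, NDUFB7, ATP5C1 and ATP5G1 are lower with the inhibitor in every line without overlap, COX7A2L is higher, and SDHB and COX4I1 show overlapping arms in at least 2 lines.

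Complex II oxidizes succinate and has no mitochondrially encoded subunit. SDHC was its only gene called higher and SDHA its only gene called lower, each in some lines only. Of the 4 genes 0 were lower and 1 higher in SUDHL6, beside 33.7% and 30.2% of all genes tested. The counts were 0 and 1 in SUDHL4, beside 37.1% and 29.6%, and 1 and 0 in Farage, beside 38% and 29.2%. With 4 genes such counts cannot be set apart from these shares. SDHB, the iron-sulfur subunit, read 61.3, 62.4 and 75.4 FPKM in SUDHL6 DMSO libraries and 79.7, 69.3 and 76.9 FPKM with the inhibitor. Its SUDHL4 values were 86.3, 84.8 and 90.5 FPKM and 91.8, 94.8 and 79.01 FPKM. Farage gave 82.8, 95.3 and 87.5 FPKM and 91.5, 96.9 and 101 FPKM. The arms overlapped in all 3 lines, and the log2 fold changes were 0.18 ± 0.09 (SE), 0.02 ± 0.09 and 0.12 ± 0.09 (limma adjusted p = 0.0899, 0.889 and 0.241). The SUDHL6 value passed the threshold without SUDHL6 DMSO replicate 3 or SUDHL6 inhibitor replicate 2 (adjusted p = 0.0126 to 0.0433), without both SUDHL6 replicate 3 libraries (0.0293), with median-ratio scaling (0.0370), with quantile normalization (0.0186) and with the GC and length trend removed (0.00396). The Farage value of SDHB passed with median-ratio scaling (0.0378) and with that trend removed (0.0270).

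SDHC, a membrane anchor that helps bind ubiquinone, read 27.1, 25.98 and 25.9 FPKM with DMSO and 35.2, 33.4 and 29.97 FPKM with the inhibitor in SUDHL6. It rose there and in SUDHL4 (0.31 ± 0.06 and 0.25 ± 0.06, limma adjusted p = 0.000544 and 0.00226), with no overlap between arms, and was -0.02 ± 0.06 in Farage (adjusted p = 0.838). With the GC and length trend removed neither rise was called (adjusted p = 0.0767 and 0.310), and SDHC was called lower in Farage (-0.21, adjusted p = 0.0189). SDHD, the other anchor, had log2 fold changes of 0.16, 0.20 and -0.10 (SE 0.11; limma adjusted p = 0.197, 0.112 and 0.442). The SUDHL6 and SUDHL4 values of SDHD passed without SUDHL6 DMSO replicate 3 (adjusted p = 0.0101 and 0.0394) and without both SUDHL6 replicate 3 libraries (0.0305 and 0.0118), and the SUDHL4 value also with median-ratio scaling (0.0138), the line fitted alone (0.0350), the replicate block (0.0249) and the GC and length trend removed (0.0430). SDHA, the flavoprotein that oxidizes succinate, was below its DMSO mean in every line, with -0.31, -0.29 and -0.53 (SE 0.14), and was called in Farage alone (limma adjusted p = 0.0777, 0.0887 and 0.00453). Its SUDHL6 replicates moved in pairs, and with the replicate number as a block SDHA was called lower there (adjusted p = 0.000758), as it was without SUDHL6 DMSO replicate 1 or SUDHL6 inhibitor replicate 3 (0.0115 to 0.0129), without both replicate 3 libraries (0.0273) or with quantile normalization (0.0491). In SUDHL4, where its arms did not overlap, SDHA was called lower with the line fitted alone (0.00422), without SUDHL6 DMSO replicate 3 or SUDHL6 inhibitor replicate 1 (0.0360 to 0.0446), without both SUDHL6 replicate 3 libraries (0.00634) and with the replicate block (0.000901). Whether SDHA and the other complex II genes differed between lines was tested for each, and SDHC alone passed (F test adjusted p = 0.0133, against 0.515 for SDHA, 0.516 for SDHB and 0.193 for SDHD).

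Complex III passes electrons from ubiquinol to cytochrome c. Of its 7 tested genes 3 differed between lines, beside 52.5% of all genes tested. In SUDHL6 3 of the 7 were lower and 2 higher, beside 33.7% and 30.2% of all genes tested. SUDHL4 had 3 lower and 1 higher, beside 37.1% and 29.6%, and Farage 4 and 0, beside 38% and 29.2%. UQCRC1, a core subunit, fell in all 3 lines with log2 fold changes of -0.73, -0.27 and -0.64 (SE 0.09; limma adjusted p = 7.16e-06, 0.0165 and 2.38e-05), and the SUDHL4 call was lost without SUDHL4 DMSO replicate 2 or SUDHL4 inhibitor replicate 1 or 3 (adjusted p = 0.0557 to 0.0628) and with the GC and length trend removed (0.693). UQCR10, a small subunit, fell with -0.66, -0.35 and -0.82 (SE 0.14), and its SUDHL4 call was lost without SUDHL4 DMSO replicate 1 or 2 or SUDHL4 inhibitor replicate 3 (adjusted p = 0.0785 to 0.141), without the filter on low values (0.0731), with median-ratio scaling (0.0545) and with the GC and length trend removed (0.104).

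UQCRC2, the partner core subunit, took opposite calls. SUDHL6 read 89.9, 88.9 and 106 FPKM with DMSO and 129.6, 98.3 and 119 FPKM with the inhibitor. The SUDHL4 values were 109.9, 111 and 117 FPKM and 159.9, 168 and 146 FPKM. In Farage they were 208, 220.4 and 211 FPKM and 179.6, 185 and 183 FPKM. SUDHL4 separated upward, Farage separated downward, and in SUDHL6 the arms overlapped. The log2 fold changes were 0.28 ± 0.09 (SE), 0.48 ± 0.09 and -0.22 ± 0.09 with limma adjusted p of 0.0156, 0.000287 and 0.0446, and the F test of the difference between lines gave an adjusted p of 0.00122. Leaving out SUDHL4 DMSO replicate 1, 2 or 3, SUDHL4 inhibitor replicate 1 or any 1 of the 6 Farage libraries ended the Farage call (adjusted p = 0.0511 to 0.120), as did median-ratio scaling (0.178) and dropping the filter on low values (0.0766). The SUDHL6 call was lost without SUDHL6 DMSO replicate 1 or 2 or SUDHL6 inhibitor replicate 1 (0.0584 to 0.0825) and with the line fitted alone (0.143). UQCRFS1, the Rieske iron-sulfur protein, was lower in SUDHL4 (-0.29 ± 0.09, limma adjusted p = 0.0112) and Farage (-0.24 ± 0.09, adjusted p = 0.0345) and above its DMSO mean in SUDHL6 (0.21 ± 0.09, adjusted p = 0.0641, and 0.0475 with the replicate block; it also passed without SUDHL6 inhibitor replicate 2, 0.0118, or Farage inhibitor replicate 3, 0.0478, with median-ratio scaling, 0.0237, and with quantile normalization, 0.0381). Its Farage call was lost without Farage DMSO replicate 2 or 3 or Farage inhibitor replicate 1 or 2 (0.0789 to 0.147), with median-ratio scaling (0.116), without the filter (0.0608) and with the line fitted alone (0.0640).

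UQCRH, the hinge subunit that helps cytochrome c dock, showed the SUDHL6 replicate 3 libraries apart from the rest. It read 471, 445 and 1066 FPKM in SUDHL6 DMSO libraries and 322, 310.2 and 590.1 FPKM with the inhibitor, so replicate 3 was the highest of both arms. Its SUDHL6 log2 fold change was -0.64 ± 0.28 (limma adjusted p = 0.0548), and the call was made with the replicate block (8.16e-05), without both replicate 3 libraries (1.32e-05), and without SUDHL6 DMSO replicate 1 or 2 or SUDHL6 inhibitor replicate 3 (0.00572 to 0.0283) and with median-ratio scaling (0.0474). SUDHL4 and Farage gave 0.01 ± 0.28 (adjusted p = 0.98) and -0.48 ± 0.28 (adjusted p = 0.138), and in Farage the arms, 611, 659.7 and 610.3 FPKM against 453, 444 and 449 FPKM, did not overlap. Without both SUDHL6 replicate 3 libraries the Farage value was called as well (adjusted p = 3.42e-06), as it was without SUDHL6 DMSO replicate 3 alone (0.0255), with the line fitted alone (0.000126) and with the replicate block (0.000383). UQCRHL is a near-identical copy of UQCRH at 0.548 to 2.67 FPKM; it was called higher in SUDHL6 (0.73 ± 0.25, limma adjusted p = 0.0213), a call lost without SUDHL6 DMSO replicate 1 or 3 or SUDHL6 inhibitor replicate 3 (0.0590 to 0.0756), without both replicate 3 libraries (0.131) or without the filter (0.0540), and reads of the pair may not be told apart.

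Complex IV reduces oxygen, and its nuclear genes encode subunits around a mitochondrially encoded core, several with tissue-specific isoforms. Of the 13 tested genes 5 were lower and 3 higher in SUDHL6, beside 33.7% and 30.2% of all genes tested. The counts were 4 and 3 in SUDHL4, beside 37.1% and 29.6%, and 8 and 2 in Farage, beside 38% and 29.2%. COX4I1, the common isoform of subunit 4, stayed near its DMSO level: it read 469, 530.4 and 497 FPKM and 476, 499 and 523 FPKM in Farage, where the arms overlapped. It was called in SUDHL4 alone (0.17 ± 0.07, limma adjusted p = 0.0479), a call lost without any 1 of 11 libraries, namely the DMSO replicates 1 to 3 of SUDHL6 and SUDHL4, SUDHL4 inhibitor replicate 2, Farage DMSO replicate 3 and Farage inhibitor replicates 1 to 3 (adjusted p = 0.0514 to 0.2496), and with a pseudocount of 5, no filter, quantile normalization or the line fitted alone (0.0518 to 0.118). With quantile normalization its Farage value was -0.21 and called lower, and with the GC and length trend removed it was 0.21 in Farage and 0.22 in SUDHL6 and called higher in both. COX5A fell in all 3 lines with -0.65, -0.28 and -0.51 (SE 0.09; limma adjusted p = 2.88e-05, 0.0174 and 0.000225), though without SUDHL4 DMSO replicate 2 or SUDHL4 inhibitor replicate 1 or 3 the SUDHL4 call was lost (0.0513 to 0.0680), as it was with the GC and length trend removed (0.176). COX5B had -0.27, -0.19 and -0.67 (SE 0.09) and COX8A -0.41, -0.13 and -0.59 (SE 0.12), each called in SUDHL6 and Farage. The SUDHL6 call of COX5B was lost without SUDHL6 DMSO replicate 3 or SUDHL6 inhibitor replicate 1 (adjusted p = 0.0625 to 0.0824), without both SUDHL6 replicate 3 libraries (0.0644) and with quantile normalization (0.0533). That of COX8A was lost without both replicate 3 libraries (0.0765) and with the line fitted alone (0.0675). With the GC and length trend removed neither gene was called in SUDHL6 (0.790 and 0.409), nor COX8A in Farage (0.114).

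COX7B, a small subunit, differed by line. It read 231, 218 and 223 FPKM in SUDHL6 DMSO libraries and 276, 233 and 260.1 FPKM with the inhibitor. SUDHL4 went from 383, 364 and 379 FPKM to 295, 312 and 264 FPKM. Farage went from 288, 357 and 328 FPKM to 200.04, 197 and 206 FPKM. All inhibitor libraries of SUDHL6 lay above its DMSO libraries and all those of SUDHL4 and Farage lay below theirs. The falls in SUDHL4 and Farage were called (-0.37 ± 0.08 and -0.68 ± 0.08, limma adjusted p = 0.00111 and 4.74e-06), the SUDHL6 value was not (0.19 ± 0.08, adjusted p = 0.0557), and the difference between lines passed the F test (adjusted p = 0.000108). The SUDHL6 value was called without SUDHL6 inhibitor replicate 2, SUDHL4 inhibitor replicate 3 or Farage DMSO replicate 1 or 2 (adjusted p = 0.0165 to 0.0447), with median-ratio scaling (0.0337) and with the GC and length trend removed (0.0371). The common isoforms COX6A1 and COX6B1 were called lower in Farage (-0.26 ± 0.09 and -0.30 ± 0.08, limma adjusted p = 0.0161 and 0.00377), and with the GC and length trend removed their Farage values were not called and those in SUDHL6 were 0.19 and 0.21 and called higher, as was COX6B1 in SUDHL4 (0.25). The COX6A1 call was also lost without Farage DMSO replicate 2 or Farage inhibitor replicate 1 or 2 (adjusted p = 0.0510 to 0.0816).

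The 2 subunit genes that rose in every line are paralogs of other members. COX7A2L, which joins complexes III and IV into supercomplexes (hg19 chr2:42576749-42588645), read 72.8, 65.9 and 76.7 FPKM with DMSO and 99.6, 87.1 and 104 FPKM with the inhibitor in SUDHL6. SUDHL4 read 176, 174 and 181 FPKM and 253, 258 and 245 FPKM. The Farage values were 90.3, 106 and 98.98 FPKM and 137, 135 and 149 FPKM. Every inhibitor library was above every DMSO library of its line, with log2 fold changes of 0.42 ± 0.08 (SE), 0.51 ± 0.08 and 0.51 ± 0.08 (limma adjusted p = 0.000206, 3.55e-05 and 3.5e-05). Its paralog COX7A2, the common isoform of subunit 7A, had 0.32, -0.19 and 0.09 (SE 0.12) and was called higher in SUDHL6 alone (adjusted p = 0.0367), a call lost without SUDHL6 DMSO replicate 2 or 3 or SUDHL6 inhibitor replicate 1 (0.0908 to 0.164), without both replicate 3 libraries (0.0741), without the filter (0.0762) and with the line fitted alone (0.121).

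NDUFA4L2, a paralog of NDUFA4 known for its induction under hypoxia, is a low-level gene, so its log2(FPKM + 1) values understate its change. It read 1.18, 1.42 and 1.51 FPKM in SUDHL6 DMSO libraries and 3.02, 4.38 and 3.797 FPKM with the inhibitor. In SUDHL4 it read 8.55, 8.297 and 8.25 FPKM and 17.2, 18.03 and 17.9 FPKM. In Farage it read 0.357, 0.456 and 0.4304 FPKM and 1.02, 0.718 and 1.07 FPKM. The arms did not overlap in any line, and the ratios of mean FPKM were 2.72, 2.11 and 2.26. NDUFA4 itself, first assigned to complex I and now to complex IV, went the other way with log2 fold changes of -0.61, -0.66 and -0.69 (SE 0.09; limma adjusted p = 4.14e-05, 1.85e-05 and 1.29e-05). Of the FPKM of the pair, NDUFA4L2 held 1.53% ± 0.277 (SD, n = 3) with DMSO and 6.11% ± 1.48 with the inhibitor in SUDHL6, 5.49% ± 0.220 and 16.3% ± 1.05 in SUDHL4, and 0.545% ± 0.0211 and 1.97% ± 0.377 in Farage. The locus of NDUFA4L2 shares its span with NXPH4 and SHMT2. The muscle, lung and testis isoforms of complex IV (COX4I2, COX6A2, COX6B2, COX7A1 and COX7B2) did not pass the filter: COX7B2 was listed at 0 in every library and the others reached at most 0.473 FPKM.

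Complex V makes ATP with a catalytic head in the matrix and a ring of c subunits in the membrane joined by a central shaft. All 10 tested genes were called lower in SUDHL6 and in Farage, beside 33.7% and 38% of all genes tested. In SUDHL4 8 were called lower, beside 37.1%. ATP5A1, the alpha subunit of the head, read 441, 440.3 and 530.1 FPKM with DMSO and 238, 276 and 283 FPKM with the inhibitor in SUDHL6, and its log2 fold changes were -0.82, -0.58 and -0.96 (SE 0.08; limma adjusted p = 5.12e-07, 1.09e-05 and 8.74e-08). ATP5C1, the gamma subunit of the shaft, fell from 145, 134 and 157 FPKM to 85.1, 86.6 and 91.1 FPKM in SUDHL6. In SUDHL4 it fell from 218, 209.7 and 196 FPKM to 92.8, 94.2 and 86.9 FPKM, and in Farage from 168, 203 and 191 FPKM to 67.6, 66.5 and 72.7 FPKM. No arms overlapped, and the log2 fold changes were -0.72 ± 0.08 (SE), -1.18 ± 0.08 and -1.43 ± 0.08 with limma adjusted p of 1.39e-06, 1.15e-08 and 1.58e-09. ATP5D, the delta subunit at the foot of the shaft, had -1.20, -0.54 and -1.20 (SE 0.13). ATP5I, the e subunit that helps hold dimers, had -0.88, -0.82 and -1.32 (SE 0.10). Of the stator, which keeps the head from turning, ATP5H had -0.75, -0.71 and -1.17, ATP5J -0.60, -1.04 and -0.90 and ATP5O -0.38, -0.08 and -0.47 (SE 0.10, 0.09 and 0.07), and ATP5O, like ATP5G2, had no call in SUDHL4 (limma adjusted p = 0.36). ATP5L2, a copy of the g subunit gene, did not pass the filter.

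The c ring is built from 1 mature protein encoded by 3 genes, and the genes responded unequally. ATP5G1 (hg19 chr17:46970148-46973232), whose promoter is shown above, read 223, 191 and 255 FPKM in SUDHL6 DMSO libraries and 81.3, 64.97 and 88.7 FPKM with the inhibitor. SUDHL4 read 229, 229.8 and 198 FPKM and 75.2, 79.2 and 61.6 FPKM. Farage read 146, 185 and 163 FPKM and 67.1, 71.2 and 67.3 FPKM. Inhibitor libraries lay far below DMSO libraries in every line, with log2 fold changes of -1.50 ± 0.13 (SE), -1.60 ± 0.13 and -1.25 ± 0.13 (limma adjusted p = 3.08e-07, 1.15e-07 and 1.35e-06). ATP5G3 also fell in all 3 lines with -0.84, -0.96 and -0.94 (SE 0.08). ATP5G2 differed: it went from 291, 267 and 280.3 FPKM to 173, 146 and 141 FPKM in SUDHL6 and from 214, 225 and 203 FPKM to 161, 161 and 165 FPKM in Farage, and both falls were called (-0.86 ± 0.07 and -0.39 ± 0.07). In SUDHL4 ATP5G2 read 606, 637 and 634 FPKM with DMSO and 661, 736 and 661 FPKM with the inhibitor, above DMSO in every library but not called (0.13 ± 0.07, limma adjusted p = 0.138); ATP5G2 was called higher there with median-ratio scaling (0.0388) and with the GC and length trend removed (0.000836). Its F test of the difference between lines had the smallest adjusted p of all members (1.36e-05).

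ATP5G1 held 36.7% ± 2.34 (SD, n = 3) of the summed FPKM of the c-subunit genes in SUDHL6 with DMSO and 27.1% ± 3.42 with the inhibitor. In SUDHL4 the share was 22.7% ± 1.53 and then 8.78% ± 0.810, and in Farage 33.3% ± 1.85 and then 23.5% ± 0.925. The ATP5G2 share was 64.9% ± 2.03 with DMSO and 83.7% ± 0.760 with the inhibitor in SUDHL4. These shares were not tested. The summed level was 604 ± 49.8 FPKM with DMSO and 288 ± 20.9 FPKM with the inhibitor in SUDHL6, 965 ± 23.9 and 819 ± 53.9 FPKM in SUDHL4, and 495 ± 34.8 and 291 ± 6.05 FPKM in Farage.

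**Figure D4:**
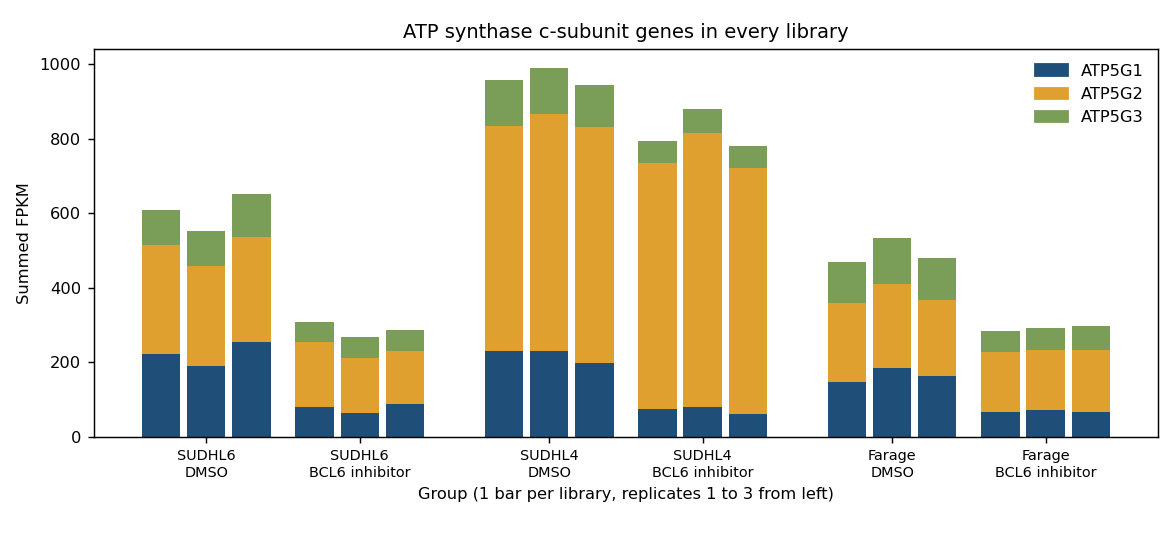
Summed FPKM (vertical axis, from 0) of the c-subunit genes ATP5G1, ATP5G2 and ATP5G3, stacked, in each of the 18 libraries, by line and treatment (horizontal axis). ATP5G1 shrinks with the inhibitor in every line, while in SUDHL4 ATP5G2 keeps the bars high, at 83.7% of the sum.

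The size of the response differed between lines for 33 of the 64 subunit genes and 36 of the 69 members (moderated F test in limma, Benjamini-Hochberg adjusted p under 0.05), beside 52.5% of all genes tested. By complex these were 18 of 30 in complex I, 1 of 4 in complex II, 3 of 7 in complex III, 3 of 13 in complex IV and 8 of 10 in complex V. After ATP5G2 the smallest adjusted p belonged to NDUFB7 (4.29e-05), NDUFB9 (9.56e-05), COX7B (0.000108), NDUFA5 (0.000148) and NDUFV3 (0.000182). COX7A2L, with log2 fold changes of 0.42, 0.51 and 0.51, gave an adjusted p of 0.73, and NDUFA4, with -0.61, -0.66 and -0.69, gave 0.89; a p above the threshold does not show that the lines responded alike.

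In every line the inhibitor libraries lay below the DMSO libraries for complexes I and V. The median difference of complex V from the line's DMSO mean was -0.82, -0.80 and -0.81 in the SUDHL6 inhibitor libraries, -0.76, -0.64 and -0.90 in those of SUDHL4, and -1.09, -1.05 and -0.97 in those of Farage. The DMSO libraries of all 3 lines ran from -0.11 to 0.18, both limits in SUDHL6. For complex I the inhibitor libraries ran from -0.47 to -0.31 in SUDHL6, -0.69 to -0.61 in SUDHL4 and -0.54 to -0.50 in Farage. Complex II of SUDHL6 DMSO replicate 3 stood at 0.23, above its inhibitor libraries at 0.03 to 0.21. Summed over the 64 genes, subunit transcripts made up 0.790 to 0.821% of a library's FPKM in SUDHL6 DMSO libraries and 0.604 to 0.686% in its inhibitor libraries. The shares were 0.776 to 0.873% and 0.665 to 0.726% in SUDHL4, and 0.672 to 0.787% and 0.511 to 0.590% in Farage, with no overlap in any line. With 3 libraries against 3, an exact two-sided permutation test of 1 such value cannot go below p = 0.1, so none is given.

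**Figure D5:**
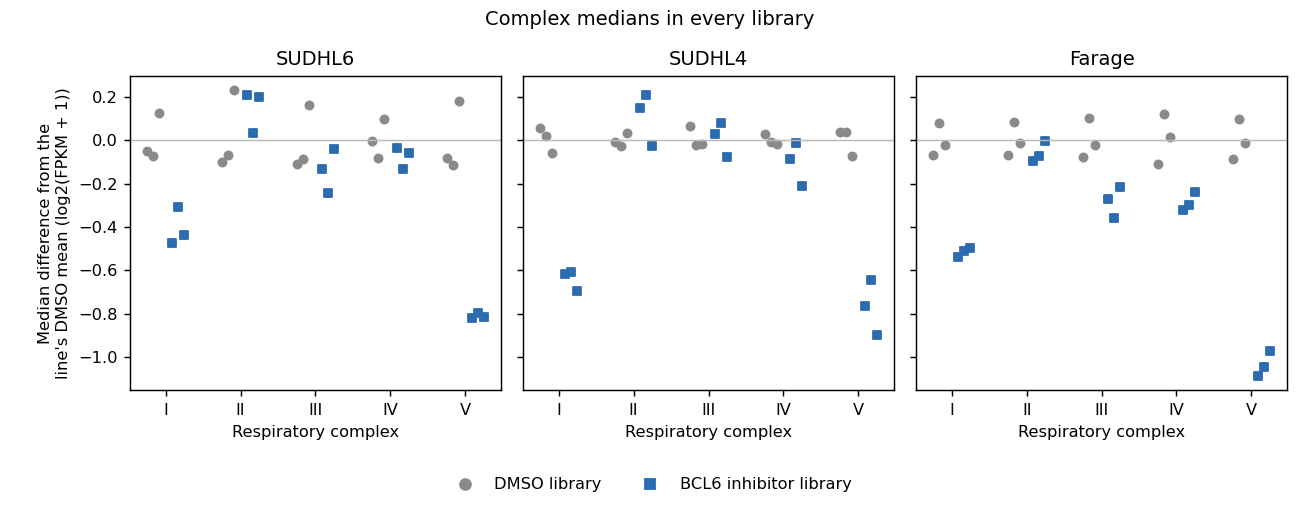
Median over a complex's genes of the difference from the line's DMSO mean (vertical axis, log2(FPKM + 1)) for each library, by complex (horizontal axis) and line, with DMSO libraries as circles and inhibitor libraries as squares. Complexes I and V separate in every line (complex V inhibitor libraries at -1.09 to -0.64), and replicate 3 is the highest SUDHL6 circle in all 5 complexes.

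Levels of the members spanned a wide range on the FPKM scale, which is per length. COX7C was highest with a mean over the 18 libraries of 1264 FPKM, followed by UQCRH with 549, ATP5I with 439, COX4I1 with 401 and COX6A1 with 375 FPKM. COX7C, the most abundant, was not called in any line (-0.12, -0.05 and -0.19, SE 0.10; limma adjusted p = 0.323, 0.666 and 0.119). Across the 64 genes the log2 fold change and the GC content of the transcripts correlated with Pearson r = -0.38 in SUDHL6, -0.13 in SUDHL4 and -0.41 in Farage (Spearman rho = -0.40, -0.16 and -0.33), a description over genes that share libraries. The median transcript length was 758 bases for the 64 genes and 1695 bases for all tested gene names.

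Members whose names match the rule without encoding a subunit did not follow 1 direction. ATP5S, a coupling factor of the synthase, fell in all 3 lines with -1.20, -0.54 and -0.79 (SE 0.10), and its locus shares its span with other named rows. ATP5SL, now known as a complex I assembly factor, was called higher in SUDHL4 (0.49 ± 0.06, limma adjusted p = 7.17e-06) and Farage (0.47 ± 0.06, adjusted p = 1.05e-05), with 0.09 ± 0.06 in SUDHL6 (adjusted p = 0.222), where it was called higher with the GC and length trend removed (0.29, adjusted p = 0.00035). The antisense transcript NDUFA6-AS1 was called higher in SUDHL6 and SUDHL4 (0.59 and 0.53, SE 0.13), a SUDHL6 call lost with the line fitted alone (adjusted p = 0.0636), and NDUFB2-AS1 lower in both (-0.69 and -0.43, SE 0.11). The sources used here do not state whether reads kept strand, so an antisense transcript cannot be told apart from its partner gene. The pseudogene ATP5EP2 had no call (0.13, -0.12 and 0.00, SE 0.26), and UQCRBP1 did not pass the filter.

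Genes that build or feed the chain were lower more often than higher. Of 12 complex I assembly factors 9 were lower and 2 higher on average over the lines (median log2 fold change -0.50), led by FOXRED1 (-1.32 ± 0.05) and ACAD9 (-1.29 ± 0.06). Of 8 factors for complexes II and III 5 were lower and 2 higher (median -0.60), with ACN9, which assembles complex II, at -1.60 ± 0.11 and UQCC2, which assembles complex III, at -1.27 ± 0.07. Of 19 factors for complexes IV and V 14 were lower and 1 higher (median -0.57), with COA3 at -1.21 ± 0.13 and the copper chaperone COX11 at -0.99 ± 0.06. Among 10 other genes of the chain 6 were lower and 2 higher (median -0.51): ATPIF1, the inhibitor of ATP synthase reversal, had -1.21 ± 0.07, and ETFDH, which passes electrons from fatty acid oxidation to ubiquinone, rose with 1.46 ± 0.06. ETFDH read 5.35, 5.397 and 7.65 FPKM in SUDHL4 DMSO libraries and 21.8, 21.6 and 21.5 FPKM with the inhibitor, and it was called higher in all 3 lines (1.38, 1.68 and 1.32; limma adjusted p = 6.35e-08, 6.73e-09 and 5.04e-08). The lists were chosen with earlier results of these data known, and their counts stand beside 44.9% lower and 35.7% higher of all genes tested.

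Of 10 genes of coenzyme Q synthesis 7 were lower and 1 higher on average (median -0.46), with PDSS1, which makes the side chain, at -1.40 ± 0.07 and COQ10B, a coenzyme Q binding protein, at 1.30 ± 0.08. The tricarboxylic acid cycle had 12 lower and 3 higher of 17 (median -0.56), with IDH2 at -1.77 ± 0.24 and MDH2 at -1.22 ± 0.06; IDH2 read 24.1, 26.5 and 87.1 FPKM in SUDHL6 DMSO libraries, highest in replicate 3. Of 10 genes that maintain and transcribe mitochondrial DNA 8 were lower and 1 higher (median -0.52), with the mitochondrial RNA polymerase POLRMT at -1.56 ± 0.08 and TFB1M, a methyltransferase of mitochondrial ribosomal RNA, at -1.42 ± 0.17. The 11 tested nuclear regulators went the other way in count, 4 lower and 7 higher (median 0.44, and -0.02 in Farage). MYC read 155, 157 and 126 FPKM in SUDHL4 DMSO libraries and 11.5, 12.4 and 11.6 FPKM with the inhibitor (-3.51 ± 0.10); it fell in SUDHL6 (-1.29 ± 0.10) and was not called in Farage (-0.12 ± 0.10, limma adjusted p = 0.303). PPARGC1B, a coactivator of respiratory genes, fell with -1.30 ± 0.05. The following were named after their values were seen, as some of the factors whose motifs were searched above. NRF1 had 0.46, 0.95 and 0.49, YY1 0.53, 0.63 and 0.87 and GABPA 1.00, 1.46 and 0.68 (SE 0.08, 0.07 and 0.12), each called higher in all 3 lines. They do not stand for all such factors. MYC, whose E-box was searched too, fell in SUDHL6 and SUDHL4, and the estrogen-related receptor genes are not reported here. GABPA and the subunit gene ATP5J lie in 1 deposited locus, and ATP5J fell there in all 3 lines with -0.60, -1.04 and -0.90.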

How the data were processed

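Messenger RNA of 18 libraries (3 lines, DMSO or BCL6 inhibitor, 3 replicates each) was analysed. The authors deposited FPKM for 34410 loci in each library; per the submitters' processing notes CASAVA 1.8, TopHat2 and Cufflinks were used with genome build hg19. Other versions, the annotation and the strand setting were not stated in the sources used. FPKM are not counts, so no count test was run.

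Named loci with at least 1 FPKM in at least 3 libraries (12201) were fitted as log2(FPKM + 1) with limma 3.58.1 under R 4.3.3, giving each of the 6 groups its own mean, empirical Bayes with an intensity trend and Benjamini-Hochberg adjustment over all genes tested. Fold changes are on the log2(FPKM + 1) scale, which understates low genes. Contrasts were inhibitor against DMSO per line, their average, and an F test, with moderated variances, of whether the lines responded differently. The fit was tried on simulated data with independent noise and few changed genes. That trial did not cover data with as many calls as here, or libraries that share deviations. The members and gene lists were chosen with earlier results of these data known, complex I among them, and nothing shown before is independent support.

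Named genes are catalytic subunits, the 3 largest average decreases and 2 largest increases per complex among called genes, the 6 smallest F test p, opposite calls, isoforms, non-subunit and filtered members, and up to 2 genes per other list. ATP5D, ATP5H, ATP5J and ATP5O were named to complete complex V and COX7C for its level, after their values were seen. Whether replicate numbers pair libraries was checked by correlating deviations from group means. Same-numbered SUDHL6 libraries gave 0.309, 0.366 and 0.664. Replicates 1 and 2 also correlated across numbers (0.271 and 0.320) and both correlated with replicate 3 at -0.507 to -0.432, so that replicate 3 alone stood apart. Same-numbered libraries gave -0.0579 to 0.0636 in SUDHL4 and -0.0384 to 0.0767 in Farage. The main fit took no replicate numbers as pairs, so its SUDHL6 errors and p-values leave any pairing out. Replicate number entered as a block in alternative fits only. GC content and transcript length came from GENCODE v29 transcripts and covered 64 of 64 subunit genes and 81.9% of tested names. 1 complex I gene enters the counts and medians but is not reported here by name. Promoters came from RefSeq GRCh38.p14; hg19 spans are those of the files. Summaries used Python 3.11.15 with pandas 2.3.3 and numpy 2.4.6; plots used matplotlib 3.10.9.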

Additional observations from a re-analysis of the deposited data

Results flagged for a closer look

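Of all genes tested 52.5% responded differently in the 3 lines by the F test. The rule for naming genes took in members with the smallest p of that test and those with opposite calls. A count among named members is therefore partly set by that choice and cannot be judged against that share. The response differed between the 3 lines (limma F test, Benjamini-Hochberg adjusted p) for 22 of the 42 members named by the rule. In complex I these were NDUFB7 (4.29e-05), NDUFB9 (9.56e-05), NDUFA5 (0.000148), NDUFV3 (0.000182), NDUFB5 (0.00192), NDUFV1 (0.00545), NDUFS7 (0.009997) and NDUFV2 (0.0363). In complexes II and III they were SDHC (0.0133), UQCRC2 (0.00122), UQCRFS1 (0.00923) and UQCRC1 (0.0185). In complex IV they were COX7B (0.000108), NDUFA4L2 (0.0055) and COX5B (0.0139), and in complex V ATP5G2 (1.36e-05), ATP5C1 (0.00031), ATP5I (0.0111) and ATP5A1 (0.0303). Of the members that encode no subunit they were ATP5SL (0.00248), ATP5S (0.00381) and NDUFA6-AS1 (0.0185). NDUFA4L2 read 0.357 to 0.456 FPKM in Farage DMSO libraries, a level at which log2(FPKM + 1) understates a change. Its ratios of mean FPKM in the 3 lines are given above, and whether they differ was not tested.

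The mitochondrial chromosome entered no comparison above and was present as 1 unnamed locus. It read 1678, 1521 and 1872 FPKM in the 3 SUDHL4 inhibitor libraries and was listed at 0 in all 3 SUDHL4 DMSO libraries. Both SUDHL6 replicate 3 libraries also held a value, and every other library was listed at 0. Whether these zeros reflect absent signal or a failed estimate was not tested.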

How the results depend on the processing

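Of 4982 values of named genes under 30 alternatives, 4751 kept their side of the threshold (53 of them with another sign but no call in either fit), 117 lost and 99 gained a call, and 15 changed direction with a call in one of the fits. With a pseudocount of 5 the complex I medians were -0.60 in SUDHL4 and -0.44 in Farage. With a 5 FPKM filter, which drops UQCRHL, complex III was -0.41, -0.13 and -0.36 in SUDHL6, SUDHL4 and Farage. Median-ratio scaling gave complex I -0.59 in SUDHL4 and -0.45 in Farage, complex II 0.025 in Farage, complex III 0.092 in SUDHL4 and -0.15 in Farage, complex IV -0.051 in SUDHL4 and complex V -0.98 in Farage. Quantile normalization gave complex III -0.070 and complex IV -0.21 in SUDHL4, complex IV -0.47 and complex V -1.21 in Farage, and COX4I1 -0.21 in Farage. Each line fitted alone called 4 members higher in SUDHL6.

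Removing the trend over GC content and length, chosen after seeing the data, called 14 members higher in SUDHL6, 6 in Farage and 14 on average (16, 7 and 14 with the replicate block). The medians, the same with and without the block, were -0.52 for complex I in SUDHL4, -0.14 for complex II in Farage, -0.35 and -0.36 for complex III in SUDHL6 and Farage, 0.18, 0.038 and -0.16 for complex IV and -0.67, -0.63 and -0.97 for complex V in SUDHL6, SUDHL4 and Farage. NDUFB9 (average 0.075), COX6A1 (0.19 in SUDHL6, 0.094 on average) and COX6B1 (0.21, 0.25 and 0.0095 in the 3 lines, 0.15 on average) changed direction with a call in one of the fits; COX5B, COX6A1 and COX8A in SUDHL4, NDUFA6-AS1 in Farage and NDUFB5 on average changed sign with none. The cause was not tested.

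With the replicate block alone the members lower and higher were 45 and 8 in SUDHL6, 43 and 11 in SUDHL4, 52 and 3 in Farage and 51 and 7 on average, and 45 differed between lines. Among the named genes it added 6 calls and lost 0: those given for SDHA, UQCRFS1 and UQCRH in SUDHL6, and SDHA and SDHD in SUDHL4 and UQCRH in Farage, where the numbers did not pair libraries. Without 1 library the lower counts in SUDHL6, SUDHL4, Farage and on average ranged over 34 to 43, 38 to 43, 44 to 50 and 48 to 51, the higher counts over 5 to 10, 7 to 11, 3 and 7 to 9, and those that differed over 30 to 40. Without both SUDHL6 replicate 3 libraries 39 were lower and 7 higher in SUDHL6. Counts behind the FPKM are unknown, which limits what can be said of genes near 1 FPKM.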
